A study of Mus musculus with 461 samples.

Results

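Day 3 of a mouse reprogramming course was sampled as 2 sets of single cells, whose titles begin with b2 and b1. The sets were chosen by those title prefixes and hold 58 cells (b2) and 61 cells (b1), or 119 of the 461 cells of the series. Each cell was captured on the Fluidigm C1 system, a microfluidic device that lyses cells one at a time, and its messenger RNA was sequenced. All cells came from OG2 transgenic mouse embryonic fibroblasts (MEFs) of mixed background (1/2 129SVJ, 3/8 C57B6 and 1/8 CBA), OG2 being a line with a green fluorescent reporter of Oct4 (Pou5f1). The reprogramming cells of both sets grew in iCD1, a chemically defined medium, under a treatment named 7F in the titles. The labels do not name the factors, nor do they say what the prefixes stand for. As published, 7F is a mix of Nanog, Esrrb, Sall4, Glis1, Jdp2, Kdm2b and Map2k6. Cells labelled day 0 were also sampled under both prefixes, with 20 cells of b1 and 54 of b2, whereas the b1 sets of day 5 (5 cells) and day 7 (2 cells) were too small to compare.

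Reprogramming to induced pluripotency asks fibroblasts to silence their mesenchymal genes and to switch on the transcriptional network of the early embryo. Pou5f1 and Sox2 are transcription factors at the core of that network, while Zfp42 (Rex1), Dppa5a, Dppa3 and Fbxo15 are genes expressed in naive pluripotent cells and silent in fibroblasts. These genes usually switch on in few cells at first, so that cells taken on 1 day can stand at different points of the course.

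The labels name no animal or culture, so each set was treated as 1 sample, and cells were not used as replicates. Counts were summed over the cells of a set and given as CPM, counts scaled to a common library total. The summed depth was 187584197 counts in b1 and 124578780 in b2. The median cell had 3.10 M counts (M, mega) and 9893 detected genes in b1, against 1.96 M counts and 8670.5 genes in b2. With each cell thinned to 300000 counts the medians were 7631 and 6912 genes. The sets share 40 cell numbers in their titles, and no 2 of their cells hold identical values. Of the 12 day 3 cells with the fewest genes, 2 belonged to b1 and 10 to b2. Intervals of ratios are 95% intervals for counting error of reads only, and the reads carry no molecular identifiers. Intervals of shares are 95% intervals for the number of cells sampled. Neither covers the spread between cultures.

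Several genes of the naive pluripotency network, such as Pou5f1, Dppa5a and Zfp42, were higher in b2. Tbx3, Car4 and Mixl1 were lower, as were the factor transcripts, Nanog and Esrrb among them, most by less than 2-fold. Among the 12860 genes that passed a filter on low values (a mean of at least 1 CPM and a TPM, a transcript abundance scaled for gene length and cell total, of at least 1 in at least 10 day 3 cells), 3756 (29.2%) differed by at least 2-fold. Of these, 2069 (16.1%) were higher in b2 and 1687 (13.1%) were lower. By the mean TPM per cell, 3538 genes differed by at least 2-fold and the share that was higher in b2 was 44.3%, against 55.1% by summed counts. The same ratio between the day 0 sets was at least 2-fold in 3580 of 11036 genes (32.4%). The share of genes apart was thus not larger at day 3 than at day 0. The b1 set of day 0 holds 20 cells against 61 at day 3, so the shares of the 2 days are not measured alike. A 4-fold difference was found in 1194 genes (9.28%) at day 3 and in 1121 (10.2%) at day 0. An edgeR quasi-likelihood test (two-sided), which assumes that the day 3 sets vary as the day 0 sets do, called 38 of 22378 genes (0.17%) at an adjusted p under 0.05. It called 31 genes higher in b2 (0.139%) and 7 lower (0.0313%). That test has 1 residual degree of freedom, its p-values come from a spread pooled across genes, and 14 of the 38 genes had over 50% of the counts of their higher set in a single cell.

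Pou5f1 (ENSMUSG00000024406), the core factor also known as Oct4, was at 0.525 CPM in b1 and 23.4 CPM in b2, a ratio of 44.5 (36.9 to 54.3). It was detected, at a TPM of at least 1, in 6 of 61 b1 cells (9.84%, exact Clopper-Pearson interval 3.70 to 20.2%) and in 27 of 58 b2 cells (46.6%, 33.3 to 60.1%). Its highest cell reached a TPM of 68.6 in b1 and 251.1 in b2, and the median cell was at 0 and 0.39. Most b1 cells thus lacked it, while nearly as many b2 cells had it as lacked it. The difference passed the test (log2 ratio 5.48, edgeR adjusted p = 0.0377).

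Dppa5a (ENSMUSG00000060461), an RNA-binding protein of naive stem cells, was at 0.671 CPM in b1 and 40.5 CPM in b2, a ratio of 60.4 (51.1 to 71.8, edgeR adjusted p = 3.075e-09). It was detected in 4 b1 cells (6.56%) and 24 b2 cells (41.4%), with highest TPM values of 64.9 and 5798. One b2 cell held 62.3% of the b2 counts, and the call held without the highest cell of each set. Zfp42 (ENSMUSG00000051176), a zinc-finger protein used as a marker of naive cells, was at 0.0945 and 18.5 CPM, a ratio of 196 (127 to 322, edgeR adjusted p = 1.19e-07), and was detected in 3 and 18 cells. Fbxo15 (ENSMUSG00000034391), an F-box protein known as an early reprogramming reporter, had no count in b1 and 1410 counts in b2, at least 761-fold higher against a floor of 3 counts for the set (edgeR adjusted p = 0.000168). It was found in 0 of 61 b1 cells, which allows a share of up to 4.92% (3 of 61 cells; the exact Clopper-Pearson bound is 5.87%), and in 11 of 58 b2 cells. Dppa3 (ENSMUSG00000046323), known as Stella, was higher in b2 (0.0284 against 4.11 CPM, edgeR adjusted p = 9.46e-09) through 3 b2 cells alone, and it did not pass the filter on low values.

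Nr5a2, a nuclear receptor that can bind the Pou5f1 gene, was at 0.0804 and 6.18 CPM, a log2 ratio of 6.27, in 3 and 7 cells (edgeR adjusted p = 1.0), with a log2 ratio of -6.31 at day 0. Sox2 (ENSMUSG00000074637) was at 19.3 CPM in b1 and 56.5 CPM in b2, a ratio of 2.93 (2.82 to 3.04). Sox2 had a log2 ratio of 1.55 at day 3 and 1.14 at day 0. It was detected in 34 b1 cells (55.7%) and 54 b2 cells (93.1%), with a median TPM of 4.52 and 12.9, so that it was common in both sets and nearly general in b2. Its ratio did not pass the test (edgeR adjusted p = 1.0). Tdh (ENSMUSG00000021953), the threonine dehydrogenase on which mouse embryonic stem cells depend, was at 93.9 and 244 CPM and was detected in 31 and 43 cells. Gdf3 (ENSMUSG00000030117), a ligand of the TGF-beta family, was at 1.11 and 28.6 CPM (edgeR adjusted p = 0.0357), although more b1 cells (23) than b2 cells (16) had it. Its b1 cells stayed under a TPM of 14.9, and its highest b2 cell reached 348. Tfcp2l1 (ENSMUSG00000026380), a factor of the naive network, was at 18.7 and 150 CPM (edgeR adjusted p = 0.0276) in 14 and 23 cells. Its log2 ratio was 3.00 at day 3 and already 4.10 at day 0.

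**Figure D1:**
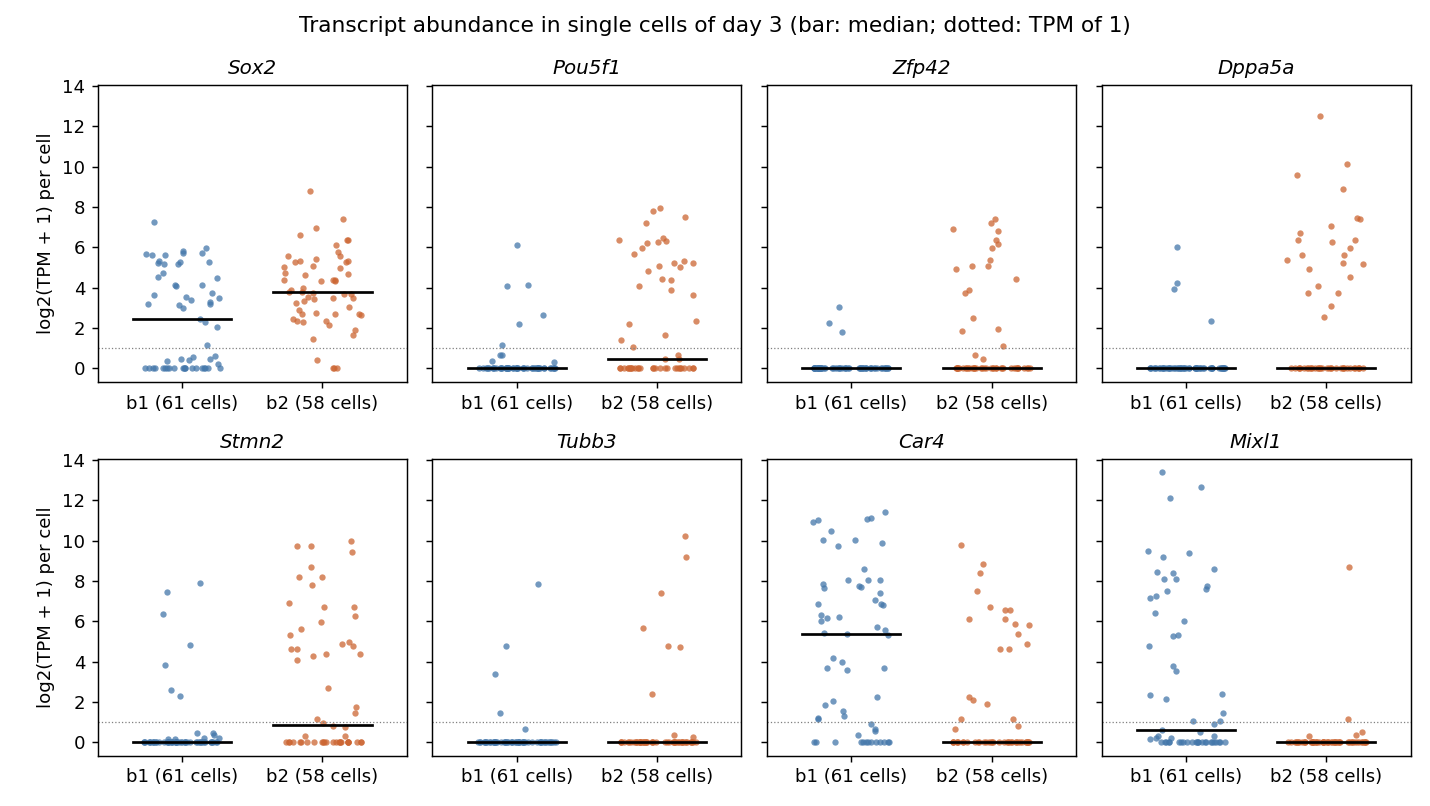
Each point is 1 day 3 cell, placed by its log2(TPM + 1) (vertical axis) in b1 (61 cells, blue) or b2 (58 cells, orange), for 8 genes. The black bar is the median and the dotted line a TPM of 1: Pou5f1, Zfp42, Dppa5a and Stmn2 were detected in more b2 cells than b1 cells, Car4 and Mixl1 in more b1 cells, and Tubb3 rests on 4 and 7 cells.

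Of the 30 genes of the pluripotency list, 19 passed the filter, and of these 16 were at least 2-fold higher in b2 and 1 was at least 2-fold lower. The median log2 ratio of the 19 was 2.25, beside 0.11 over all genes that passed. Members that were low in both sets are missing from that count, and others passed only through b2, where they are high, as with Fbxo15 (0 and 11 cells), Zfp42 (3 and 18), Dppa5a (4 and 24), Klf2 (4 and 12) and Pou5f1 (6 and 27). The count and the median are therefore a description and do not speak for the whole list. Of the 11 members that did not pass the filter, Nodal was higher in b1 (8.33 against 0.475 CPM) and Lin28a was alike (0.813 and 0.742 CPM, in 6 and 2 cells), whereas Dppa2 was higher in b2 (0.113 against 5.09 CPM, in 3 and 4 cells). Tcl1 had no count in either set. Smaller ratios were found for the Krüppel-like factors Klf4 (34.4 against 97.0 CPM), Klf5 (5.53 against 18.1 CPM) and for the cell cycle regulator Mybl2 (18.7 against 55.1 CPM). Tbx3, a T-box factor, was the member at least 2-fold lower in b2 (95.9 against 29.4 CPM, in 49 and 35 cells). In all, the edgeR test called 7 list members higher in b2, Pou5f1, Zfp42, Dppa5a, Dppa3, Tfcp2l1, Gdf3 and Fbxo15, and none lower. The list was drawn up with earlier results of these data known, so its direction is a description.

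The promoters of Pou5f1, Sox2, Zfp42 and Car4 are shown as examples among the genes described here that have a window in the table, with b2 higher for 3 of them and lower for Car4. The sequences are RefSeq windows of 300 bases on GRCm38.p6, from 250 bases before to 50 bases after the annotated start, 5′ to 3′ on the gene's strand, and capitals mark a match to ATGCAAA or its reverse complement TTTGCAT.
Pou5f1, chr17:35505782-35506081, plus strand: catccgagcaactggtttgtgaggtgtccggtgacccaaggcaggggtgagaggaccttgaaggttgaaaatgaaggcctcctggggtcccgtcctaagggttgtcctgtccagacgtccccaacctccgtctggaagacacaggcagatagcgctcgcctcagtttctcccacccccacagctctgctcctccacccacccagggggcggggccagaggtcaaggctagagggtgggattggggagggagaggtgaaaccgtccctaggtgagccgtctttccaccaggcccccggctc
Sox2, chr3:34649745-34650044, plus strand: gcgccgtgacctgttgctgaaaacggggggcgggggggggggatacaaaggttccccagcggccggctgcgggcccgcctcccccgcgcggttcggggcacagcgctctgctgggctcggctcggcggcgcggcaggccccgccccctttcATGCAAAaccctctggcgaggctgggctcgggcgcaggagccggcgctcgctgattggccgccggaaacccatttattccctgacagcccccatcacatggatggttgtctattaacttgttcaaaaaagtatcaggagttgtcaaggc
Zfp42, chr8:43306960-43307259, minus strand: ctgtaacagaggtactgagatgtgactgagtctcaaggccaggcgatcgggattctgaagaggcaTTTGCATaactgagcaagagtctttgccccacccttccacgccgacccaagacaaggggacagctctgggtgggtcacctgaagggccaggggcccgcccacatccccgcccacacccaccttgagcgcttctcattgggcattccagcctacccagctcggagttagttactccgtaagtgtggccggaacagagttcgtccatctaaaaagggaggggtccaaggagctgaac
Car4, chr11:84957504-84957803, plus strand: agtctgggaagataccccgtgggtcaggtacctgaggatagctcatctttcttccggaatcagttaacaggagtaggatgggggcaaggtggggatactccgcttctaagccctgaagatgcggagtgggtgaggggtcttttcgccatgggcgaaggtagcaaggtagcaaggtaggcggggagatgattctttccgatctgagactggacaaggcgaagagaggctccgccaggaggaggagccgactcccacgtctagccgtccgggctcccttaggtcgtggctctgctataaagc
ATGCAAA is the core of the octamer element that POU-domain factors such as Pou5f1 bind. It begins at base 152 of the Sox2 window and, on the other strand, at base 66 of the Zfp42 window, and 4.63% of the 32851 RefSeq promoter windows hold it on either strand. TCAAGGTCA (the element of Esrrb, in 0.423% of windows), TGACTCA (AP-1, 5.2%) and TGACGTCA (CRE, 1.79%) were also searched on both strands and none of them occurs in these 4 windows. The 4 motifs do not overlap in them. Of the 31 genes called higher in b2, 19 have a window in the table (24 windows), of which 3 hold ATGCAAA (Mageb16, Sfrp2 and Zfp42), and of the 7 called lower, 5 have one (6 windows), of which Asb4's holds it. A match is a description of these letters and does not show a bound site.

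Pluripotency genes were found together in more b2 cells than b1 cells. Of Pou5f1, Dppa5a, Zfp42 and Dppa3, 48 b1 cells had none, 12 had 1, 1 had 2, and no b1 cell had 3 or more. Among the b2 cells 21 had none, 12 had 1, 15 had 2 and 10 had 3. All 27 b2 cells with Pou5f1 also had Sox2, which 54 of the 58 b2 cells had. Pou5f1 and Zfp42 were found together in 14 b2 cells and in 0 b1 cells, and Dppa3 and Zfp42 together in 0 cells of either set. Zfp42 was found in only 3 b1 cells, and Dppa3 in 1 b1 cell and 3 b2 cells. Few joint cells were therefore possible, and these counts of 0 say little about joint detection.

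Counted over the 30 genes of the list, b1 cells had a median of 6 detected genes (1 to 14) and b2 cells a median of 7 (2 to 26). With cells thinned to equal depth the medians were 5 and 6.5 and the highest cells had 14 and 27. The medians were therefore close, and the sets differed in the upper tail: 2 b1 cells and 12 b2 cells had more than 10 of the genes, and 8 b2 cells had more than the highest b1 cell. Those 8 cells held 76.5% of the b2 counts of Dppa5a, 58.1% of Pou5f1, 92.8% of Fbxo15 and 78.2% of Epcam, but 31.2% of Zfp42 and 10.5% of Sox2. The cells were picked by the list, which holds all of these genes but Epcam, so high shares of list genes are partly built in. The single b2 cell that held most of the Dppa5a counts is among the 8. The remaining counts of Zfp42 and Sox2 lay in b2 cells with 14 or fewer of the list's genes. The highest Sox2 cell (TPM 440) had 13 of them and the highest Zfp42 cell (TPM 169) had 9. For reference, the median b2 cell of day 5 had 11 of the genes and that of day 7 had 23.

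**Figure D2:**
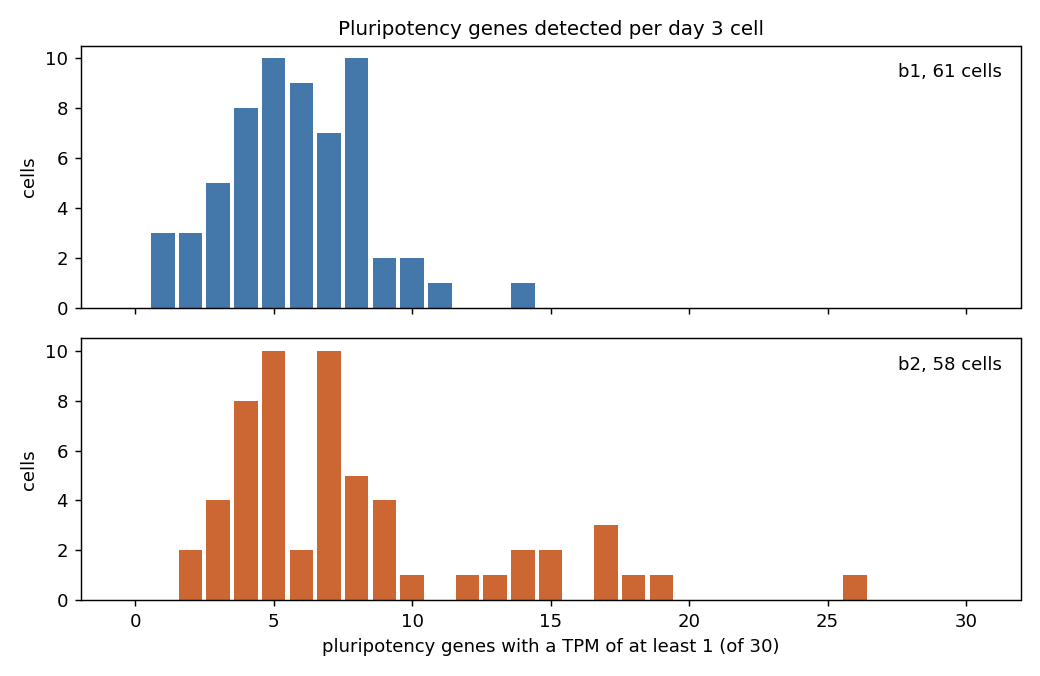
Bars count the day 3 cells (vertical axis) by the number of the 30 pluripotency genes with a TPM of at least 1 (horizontal axis), for b1 (top, 61 cells) and b2 (bottom, 58 cells). The bulk of both sets lies at 10 genes or fewer, and 8 b2 cells lie above 14, the highest value in b1.

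The 7 factors of the published cocktail were all lower in b2, each by less than 2-fold except Glis1 (3 of the 7 were at least 2-fold lower when scaled by total counts or mean TPM). Vector and native transcripts cannot be told apart in gene counts. Nanog, a homeobox factor of pluripotent cells, was at 861 CPM in b1 and 456 CPM in b2, a log2 ratio of -0.92. The nuclear receptor Esrrb was at 1414 and 853 CPM, the histone demethylase Kdm2b at 345 and 182 CPM, the AP-1 dimer partner Jdp2 at 449 and 247 CPM and the zinc-finger factor Sall4 at 577 and 468 CPM. The kinase Map2k6 was at 440 and 415 CPM, the closest pair of values. Glis1, a zinc-finger factor, was at 13.4 and 3.45 CPM and was detected in 48 and 29 cells. Every cell of both sets had Nanog, Esrrb, Kdm2b and Jdp2, so these ratios reflect amounts and not the share of cells. The list had a median log2 ratio of -0.86, its summed level was 4099 CPM in b1 and 2625 CPM in b2, and none of the 7 passed the edgeR test. At day 0 the summed level was 3643 CPM in b1 and 3710 CPM in b2, with a median log2 ratio of 0.06.

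Genes of the fibroblast state, which reprogramming cells lose, were not lower in b2 as a list, while single members differed in both directions. Of 32 fibroblast and mesenchyme genes 29 passed the filter, 7 were at least 2-fold higher in b2 and 1 at least 2-fold lower, with a median log2 ratio of 0.55. Over all genes that passed, 16.1% were at least 2-fold higher and 13.1% lower, with a median of 0.11. By mean TPM per cell 5 of the 29 were at least 2-fold higher and their median was 0.115. The intermediate filament Vim was at 336 CPM in b1 and 1102 CPM in b2, the matrix protein Sparc at 374 and 774 CPM and the collagen Col3a1 at 17.9 and 67.4 CPM. Thy1, a surface protein lost early in reprogramming, was at 1.23 and 27.6 CPM in 7 and 17 cells, and the mesenchymal factor Twist1 was at 5.88 and 22.6 CPM in 34 and 43 cells. At day 0 the log2 ratio of b2 over b1 was 2.83 for Thy1, 0.54 for Sparc, -0.24 for Col3a1, -0.38 for Vim and -0.50 for Twist1. In the other direction at day 3, Pdgfrb was at 55.1 CPM in b1 and 28.5 CPM in b2, in 31 and 16 cells. Pdgfra was at 72.85 and 46.7 CPM, and Postn was found in 44 and 12 cells at summed levels of 151.2 and 139.3 CPM. Col1a1 differed little (71.9 and 107 CPM, in 22 and 20 cells), and Snai1 was the member at least 2-fold lower in b2 (29.2 and 11.4 CPM). Of the 29 genes, 19 lay above a log2 ratio of 0, beside 7189 of all 12860 genes that passed. No gene of the list passed the edgeR test. The median cell had 14 of the 32 genes in both sets, beside 21 and 19 in the b1 and b2 sets of day 0.

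Contractile genes of the smooth-muscle type had a like summed level in both sets, with a few members lower in b2. Acta2 was at 1191 CPM in b1 and 2380 CPM in b2 at day 0, and at 5.93 CPM (11 cells) and 3.11 CPM (5 cells) at day 3. Tagln, an actin-binding protein, was at 51.2 and 16.1 CPM in 19 and 5 cells, and the myosin light chain Myl9 was at 13.8 and 2.36 CPM in 20 and 4 cells. Of the 11 members of 16 that passed the filter, Ccn2 was at least 2-fold higher in b2, Tagln and Myl9 at least 2-fold lower, and the rest lay between, with a median log2 ratio of -0.25.

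Epithelial genes, which are gained during reprogramming, differed in both directions. Of 30 such genes 14 passed the filter, of which 5 were at least 2-fold higher in b2 and 3 at least 2-fold lower. The adhesion molecule Epcam was at 0.804 CPM in b1 and 20.8 CPM in b2, in 4 and 12 cells, with an edgeR adjusted p = 0.368. The keratin Krt8 was called higher (0.340 against 13.6 CPM, edgeR adjusted p = 0.0219), but 1 b2 cell held 77.5% of its counts and it did not pass the filter. E-cadherin, Cdh1, was at 36.3 and 27.8 CPM in 17 and 18 cells. Ocln, a tight-junction protein, was lower in b2 (11.01 against 0.429 CPM, in 8 and 4 cells). The median cell of each set had 5 of the 30 genes.

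Neuronal genes differed in both directions. Tubb3 (ENSMUSG00000062380), the neuronal beta tubulin, was at 5.87 CPM in b1 and 39.3 CPM in b2, but it was detected in 4 of 61 (6.56%) and 7 of 58 (12.1%) cells, and a single cell held 92.3% of the b1 counts and 51.8% of the b2 counts. Its ratio did not pass the test (edgeR adjusted p = 1.0). Stmn2, a microtubule regulator of growing neurites, was at 10.49 and 138 CPM and was detected in 7 b1 cells (11.5%) and 28 b2 cells (48.3%), with an edgeR adjusted p = 0.0156. In the neuronal list, Nefl, Gap43 and Ncam1 were at least 2-fold lower in b2, Ncam1 in 60 and 47 cells, and Dcx was detected in no cell of either set. Of the 20 genes 9 passed the filter, 4 at least 2-fold higher and 3 at least 2-fold lower.

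Genes of secreted peptides differed in both directions. Trh, the precursor of thyrotropin-releasing hormone, was at 37.3 CPM in b1 and 401 CPM in b2 (edgeR adjusted p = 0.00791). It was detected in 10 of 61 and 34 of 58 cells, and 1 b1 cell held 90.1% of the b1 counts. Penk, the enkephalin precursor, was at 45.4 and 307 CPM in 13 and 38 cells, and Ptgds, the prostaglandin D synthase, at 5.80 and 28.1 CPM in 10 and 16 cells. Ins2, an insulin gene, was alike at 133 and 106 CPM in 50 cells of each set. Of 14 such genes 6 passed the filter, 4 at least 2-fold higher and none at least 2-fold lower, with a median log2 ratio of 1.83. Of the members that did not pass, Cck was at 5.001 CPM in 7 b1 cells and had no count in b2, and Tac1 was at 4.29 and 0.0383 CPM in 3 and 2 cells. At day 0 the log2 ratio of b2 over b1 was 6.96 for Penk, 5.92 for Ptgds and 9.15 for Ins2. Only 2 of the 14 genes passed the filter at day 0, and Penk and Ptgds were not among them, so their day 0 ratios rest on low values.

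Car4 (ENSMUSG00000000805), a membrane-bound carbonic anhydrase, was at 256 CPM in b1 and 32.3 CPM in b2, 7.90-fold lower in b2 (7.66 to 8.16, edgeR adjusted p = 0.0443). It was detected in 44 b1 cells (72.1%) and 20 b2 cells (34.5%), with a median TPM of 39.8 and 0 and highest values of 2740 and 879. The call was absent under DESeq2 (adjusted p = 1.0), and at day 0 the order was the opposite, 0.0898 CPM in b1 and 102 CPM in b2. Of the other carbonic anhydrases, Car2 was at 1347 and 1947 CPM in 60 and 58 cells, while Car14 was lower in b2 (11.2 against 1.27 CPM, in 14 and 4 cells). Car4 and Pou5f1 were found together in 9 of the 27 b2 cells with Pou5f1 and in all 6 such b1 cells.

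Mixl1 (ENSMUSG00000026497), a homeobox factor of the primitive streak, was at 580 CPM in b1 and 6.76 CPM in b2, 85.8-fold lower in b2 (80.3 to 91.7, edgeR adjusted p = 1.845e-09). It was detected in 29 b1 cells (47.5%) and 2 b2 cells (3.45%), and 1 b1 cell held 51.1% of the b1 counts. In the other sets Mixl1 was at 22.04 CPM (b1) and 0.708 CPM (b2) at day 0, 228 CPM at day 1, 277 CPM at day 4, 62.5 CPM at day 5 and 3.39 CPM at day 7. Other genes of early embryonic lineages differed in both directions. Gata6 was lower in b2 (31.2 against 8.64 CPM), Eomes was higher (5.79 against 18.6 CPM), and T was found in a single b2 cell. Of 16 such genes 6 passed the filter, 2 at least 2-fold higher in b2 (Eomes and Foxa2) and 2 lower (Mixl1 and Gata6). Among those that did not pass, Lhx1 (6.48 against 0.00765 CPM, in 6 and 0 cells) and Krt7 (8.54 against 0.378 CPM, in 6 and 2 cells) were lower in b2. Of the 29 b1 cells with Mixl1, 24 had Car4 and 3 had Pou5f1.

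Asb4, a subunit of ubiquitin ligases, was also called lower (87.4 against 2.68 CPM, in 31 and 8 cells, edgeR adjusted p = 0.0084). It was near the b1 level at day 4 (85.7 CPM) and day 5 (73.2 CPM) and low at day 7 (3.43 CPM). The cytokine Il11 was at 46.5 CPM in 53 b1 cells and 6.14 CPM in 14 b2 cells, the potassium channel Kcnk5 at 35.2 CPM in 26 and 2.04 CPM in 9, and the retrotransposon-derived gene Rtl8c at 34.6 CPM in 44 and 2.64 CPM in 20. These 3 did not pass the edgeR test. The immediate early factor Egr1 was at 339 CPM in b1 and 88.1 CPM in b2, in 58 and 42 cells, while Fos, another immediate early gene, was at 190 and 372 CPM in 60 and 58. The histone gene Hist1h2bq was called lower (97.96 against 3.46 CPM, edgeR adjusted p = 0.0219), a value that is uncertain because histone genes have near-identical copies.

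Genes of the cell cycle and of energy metabolism stood close between the sets. Of 20 genes of the G2/M phases 2 were at least 2-fold higher in b2 and none lower, with a median log2 ratio of 0.19. Mki67, the proliferation marker, was at 101 CPM in b1 and 96.4 CPM in b2, in 30 cells of each set. Of 20 S-phase genes 3 were higher (Mcm2, Mcm5 and Mcm6) and Fen1 was lower, with a median of 0.17. None of 22 respiratory chain genes differed by 2-fold, with ratios from -0.62 to 0.32 and a median of -0.27. Among 17 glycolysis genes Slc2a3, a glucose transporter, and Ldha were at least 2-fold higher in b2 (430 against 999 CPM for Ldha), and Aldoc and Ldhb were lower (4658 against 2228 CPM for Ldhb). Cdkn1c, a cell cycle inhibitor, was lower in b2 (2206 against 1016 CPM) and Cdkn1a was at 459 and 704 CPM.

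The enzymes that remove or write DNA methylation included 3 that were at least 2-fold higher in b2, Tet1 (23.5 against 83.8 CPM, in 13 and 14 cells), Dnmt3b (17.9 against 47.3 CPM, in 25 cells of each set) and Tet3 (17.6 against 35.6 CPM). Dnmt1 was at 68.7 and 57.7 CPM, and no member of the 8 was at least 2-fold lower. The ratio of Tet3 was under 2-fold by each other scaling (log2 ratio 0.41 to 0.99). All 9 genes of Polycomb repressive complex 2 that passed the filter lay above 0, beside 7189 of all 12860 genes that passed. Of the 9, 1 (Ezh1) was past 2-fold, and the median log2 ratio was 0.58. The remaining member, Phf19, did not pass the filter and had the opposite order, 19.45 CPM in 8 b1 cells against 0.0153 CPM in no b2 cell. Of 13 stress-response genes that passed the filter, 6 were at least 2-fold higher in b2 and Cebpb was lower, beside 16.1% higher and 13.1% lower over all genes. The list median was 0.10, beside 0.11 over all genes. The largest ratios were those of Nupr1 (2.62 against 39.6 CPM, in 6 and 17 cells) and Vldlr (0.544 against 12.05 CPM, in 5 and 9 cells), and neither passed the edgeR test.

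**Figure D3:**
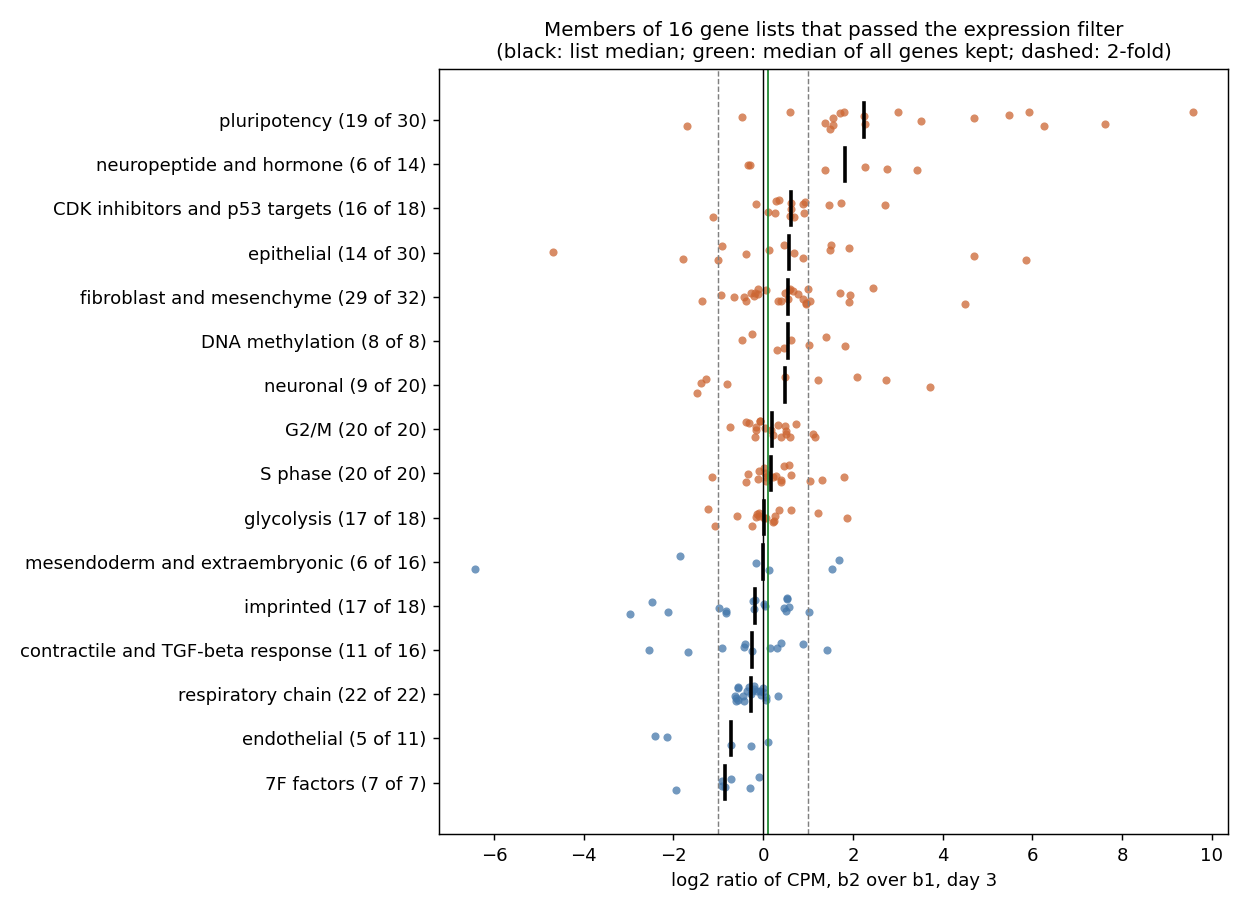
Each point is 1 gene of the list named at the left, placed by its log2 ratio of CPM, b2 over b1 at day 3 (horizontal axis), for the members that passed the filter (their number of the list's total in brackets). The black bar is the list median, from -0.86 for the 7F factors to 2.25 for the pluripotency genes, and the green line is the median of all genes that passed, 0.11.

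Further genes called higher in b2 lie outside these lists. Ak4, a mitochondrial adenylate kinase, was at 2.27 CPM in b1 and 80.95 CPM in b2, in 8 and 25 cells (edgeR adjusted p = 0.00172). Slc7a3, a transporter of cationic amino acids, was at 1.33 and 44.2 CPM in 3 and 13 cells (edgeR adjusted p = 0.00253). Both were higher still in the day 7 set, at 133 and 141 CPM. Cobl, an actin nucleator, had no count in b1 and 1833 in b2, at least 989-fold higher (0 and 13 cells, edgeR adjusted p = 0.000425). Frem2, an extracellular matrix protein, was at 0.0378 and 25.8 CPM in 1 and 8 cells. In contrast Msln, Ccn4 and Gm2115 were higher at day 0 than at day 3 in b1. Msln, a mesothelial surface protein, was at 65.7 CPM (b1) and 44.5 CPM (b2) at day 0 and at 0.142 and 23.9 CPM at day 3, in 2 and 10 cells. Crabp1, a retinoic acid binding protein, was at 25.99 and 302 CPM in 16 and 21 cells, and the secreted chaperone Clu was at 236 and 1653 CPM in 32 and 44 cells. Clu, Msln, Ccn4, Gdf3, Anxa8, Asb4, Dcpp1, Hba-a1, Mageb16, Npr3, Sfrp2 and T were no longer called without the highest cell of each set, and the other 26 were.

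The summed levels of marker lists of other cell types were lower in b2 than in b1, while single members differed in both directions. The erythroid genes summed to 31.04 CPM in b1 and 6.94 CPM in b2, nearly all from the alpha globins, and the beta globins Hbb-bt and Hbb-bs had no count in either set. Hba-a1 was called lower in b2 (16.4 against 1.11 CPM, in 17 and 5 cells, edgeR adjusted p = 0.0158), with 72.3% of the b1 counts in 1 cell, and its level is uncertain because Hba-a2 is a near-identical copy. At day 0 the erythroid sum was 12.2 CPM in b1 and 0.986 CPM in b2. The 11 macrophage genes summed to 5.31 and 2.79 CPM, with Adgre1, Tyrobp, C1qb and Lyz2 at 0 in both sets and Cd14 higher in b2 (0.326 against 1.49 CPM). The 11 endothelial genes summed to 105 and 63.3 CPM, with Cdh5 at 0.506 and 0.0153 CPM, while Kdr (24.5 and 26.6 CPM), Tek (1.02 and 1.68 CPM) and Emcn (0.274 and 1.58 CPM) had the opposite order. Of 7 skeletal muscle genes, Myod1, Myf5 and Pax7 had no count, and Acta1 was at 0.578 and 1.88 CPM. Whether these cells or transcripts have a part in the differences above was not tested.

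Differences between the prefixes were present at day 0 as well. The sets labelled day 0 already held transcripts of the 7 factors, so they are not a state without them. Of 10825 genes that passed the filter on both days, 2527 differed by at least 2-fold at day 3, and of these 798 (31.6%) differed by at least 2-fold in the same direction at day 0 and 411 (16.3%) in the opposite direction. The 798 genes were 23.1% of the 3454 that differed by at least 2-fold at day 0. Of the 38 genes called at day 3, 16 had a ratio of at least 2-fold in the same direction at day 0, 4 in the opposite direction, and 10 were at or under 3 counts in both day 0 sets. The last group includes Pou5f1, Dppa5a, Zfp42, Dppa3, Fbxo15 and Trh, which were near 0 in the day 0 sets of both prefixes.

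**Figure D4:**
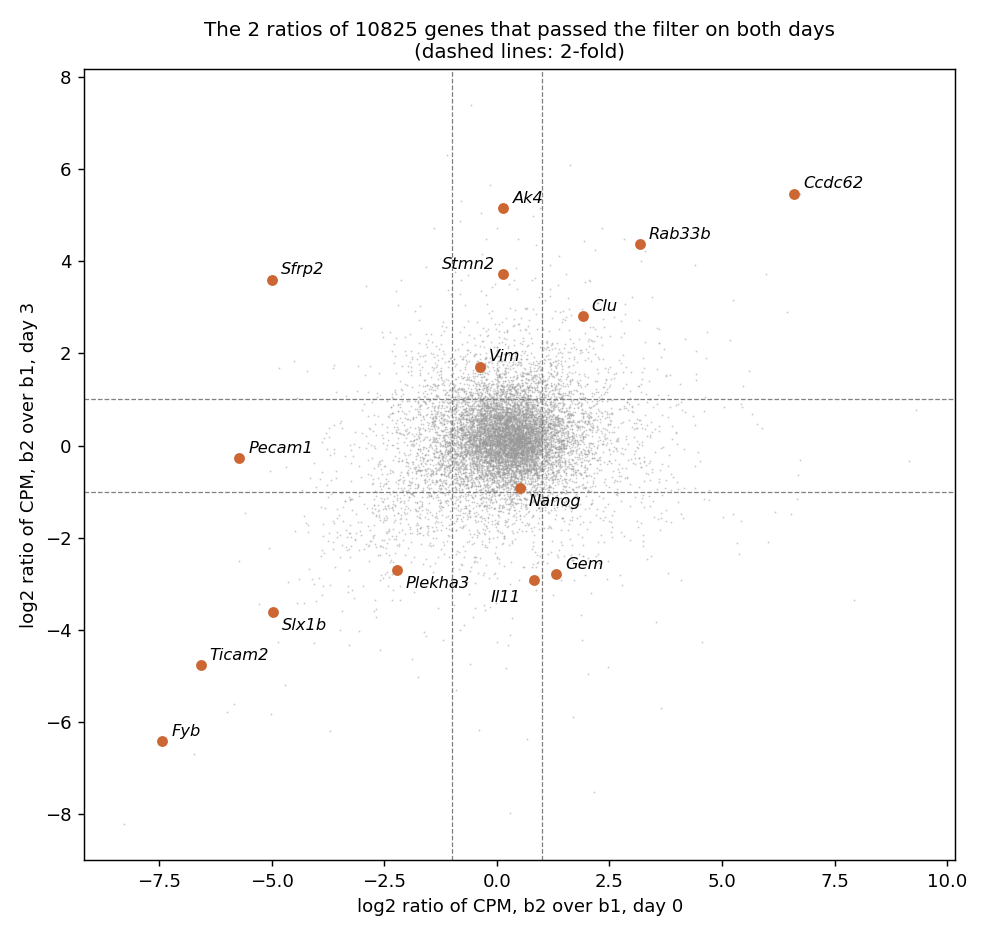
Each grey point is 1 of 10825 genes, placed by its log2 ratio of CPM, b2 over b1, at day 0 (horizontal axis) and at day 3 (vertical axis), with dashed lines at 2-fold and named examples in orange. Ccdc62, Rab33b, Slx1b, Ticam2 and Fyb lie far out in the same direction on both days, Stmn2 and Ak4 only at day 3, and Sfrp2 in opposite directions.

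Some of the largest ratios belonged to genes that set both b1 sets apart from the other 6 sets of at least 10 cells. With 0.1 CPM added, 29 genes were at least 4-fold higher in both b1 sets than in every other set, and 10 were at least 4-fold lower, a count made after the values were seen and without a test. Ccdc62 was at 1.19 CPM in b1 at day 0 and 4.04 CPM at day 3, against 116 to 336 CPM in the other 6 sets (edgeR adjusted p = 1.16e-07 at day 3). Rab33b, a small GTPase, was at 11.4 and 8.26 CPM, against 80.4 to 211 CPM. In the opposite direction Slx1b, a nuclease subunit, was at 185 and 190 CPM against 5.87 to 21.2 CPM (edgeR adjusted p = 0.0381), and Fyb, an adaptor protein of blood cells, at 19.12 and 21.8 CPM against 0.0651 to 0.357 CPM. Each day 3 group is 1 set of 1 prefix, so for every gene the day 3 difference cannot be told apart from the prefix. Pou5f1 was at 4.23 CPM in the b2 set of day 1 and Dppa5a at 0.158 CPM.

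**Figure D5:**
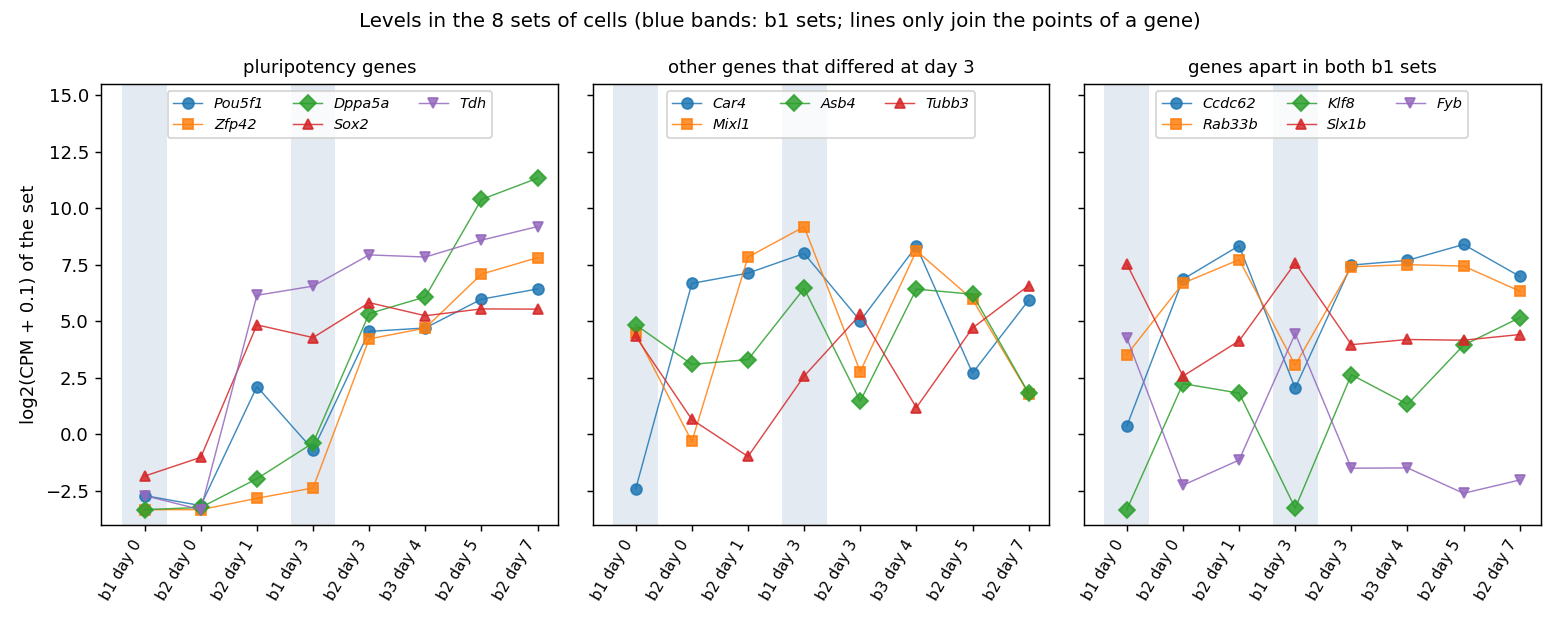
Points give log2(CPM + 0.1) of each of the 8 sets with at least 10 cells (horizontal axis) for pluripotency genes (left), other genes apart at day 3 (middle) and genes apart in both b1 sets (right). Blue bands mark the b1 sets and lines only join the points of a gene. In the right panel both b1 sets lie away from all others. In the left panel the day 3 sets lie apart and the day 0 sets together, except for Sox2 (log2 ratio 1.14 at day 0).

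The share of cells in which a gene was found showed the same split. Among the 12860 genes, 46 were detected in a share of cells at least 50 points lower in b2 and 4 in a share at least 50 points higher. At day 0, 38 of the 46 and 2 of the 4 differed by at least 50 points in the same direction. The share of all 12860 genes that differed so at day 0 was not counted, so this overlap is a description. Pecam1, an adhesion molecule of endothelium and platelets, was detected in all 61 b1 cells (TPM 1.09 to 49.1, median 7.95) and in 9 of 58 b2 cells (median 0), although its summed level was alike at 11.2 and 9.25 CPM, since 1 b2 cell held 91.6% of the b2 counts. At day 0 it was found in 20 of 20 b1 cells and 0 of 54 b2 cells. Thinned to equal depth, 58 b1 cells and 14 b2 cells of day 3 had a count. Postn and Il11 were exceptions that differed at day 3 by over 50 points and at day 0 by less (44 and 12 cells against 11 of 20 and 20 of 54 for Postn, and 53 and 14 cells against 15 of 20 and 30 of 54 for Il11). The depth per cell was lower in b2 at day 3, and its part in the other shares was not tested.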

How the data were processed

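The deposited expected counts are estimates of reads per gene and cell made by the authors with RSEM 1.2.22 after demultiplexing with bcl2fastq, per the submitters' processing notes, and 9.108% of them are not whole. The deposited TPM values are the authors' own, scaled per cell (sums of 994110 to 999272). Which aligner, genome build and annotation the authors used is not given in the sources used here. Of 31673 genes 31426 had a symbol in the reference and 31136 matched the TPM table, 469 through an older symbol. No gene of the mitochondrial genome was found by name.

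Expected counts were summed per set (title prefix and day), rounded after summing and scaled to CPM with TMM factors over the 8 sets with 10 or more cells. Sums under 3 counts were set at 3 in ratios, and intervals of ratios and shares are exact binomial 95% intervals. With 1 sample per group the ratios carry no test. Separately, edgeR's quasi-likelihood test (glmQLFit, glmQLFTest, Benjamini-Hochberg over 22378 genes) gave each day 3 set its own coefficient and let the day 0 sets share one, so that p-values assume that day 3 sets vary as day 0 sets did, with infinite prior degrees of freedom. A gene that differed widely at day 0 can thus still be called. On simulated data (200 of 22378 genes changed, 5 draws) this test found 0.4% of the genes changed 2-fold, 2% at 4-fold, 19.2% at 8-fold and 45.2% at 16-fold, beside 1.2 false calls in each draw. Missing a call is thus compatible with a change of several fold. The changed genes were all above 5 CPM in b1, unlike Pou5f1, Dppa5a, Zfp42, Dppa3 and Fbxo15. The simulated spread followed the fitted trend, with no spread particular to a gene and no single cells holding most counts. The rates may therefore not hold for genes that low in b1 or for genes with such cells. The p-values measure only the spread between these sets, which may be technical.

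Genes and lists were chosen with earlier results of these data known. The rule names the 12 highest and 12 lowest ratios among genes with at least 20 CPM and detection in 25% of cells in the higher set and no cell over 25% of its counts, without predicted genes, ribosomal proteins and histones. It adds 23 fixed genes and, of each list, up to 4 members past 2-fold and 2 under it, some left out for length. Genes called by edgeR, Pecam1, Postn, Klf8 and the genes apart in both b1 sets were named after their values were seen. DESeq2, other scalings, filters and subsets of cells were tried as alternatives. Fits ran in R 4.3.3 (edgeR 4.0.16, DESeq2 1.42.0), and all else in Python with matplotlib 3.10.9, scipy 1.17.1, pandas 2.3.3 and numpy 2.4.6.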

Additional observations from a re-analysis of the deposited data

Results flagged for a closer look

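For 7 of the named genes the ratio of b2 over b1 was at least 2-fold in opposite directions on day 3 and day 0. The log2 ratio of Car4 was -2.98 at day 3 and 10.1 at day 0. That of Tubb3 was 2.74 at day 3 and -3.76 at day 0, and both day 3 values of Tubb3 rest mainly on 1 cell. Sfrp2, a secreted Wnt modulator, had 3.60 and -4.99, Epcam 4.70 and -3.18, Gdf3 4.69 and -3.62, Aspa 2.77 and -2.57, and Gem, a small GTPase, -2.80 and 1.32. The day 0 ratios are given without the filter on low values, and the b1 set of day 0 holds 20 cells. Some of them rest on few counts, as for Aspa (0.431 CPM in b1 and 0.0728 CPM in b2 at day 0) and for Car4 in b1. Each value compares 1 set with 1 set, and the difference between the days was not tested.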

How the results depend on the processing

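The count of genes at least 2-fold apart (3756) lay between 3538 and 3811 under other scalings, by mean TPM, without the highest cell of each gene and without the 12 cells with few genes. It was 9796 with no filter, 2438 with detection in at least 25 cells and 1194 at 4-fold. Scaling by total counts moved the median log2 ratio of all genes that passed the filter from 0.107 to 0.003. Among the genes at least 2-fold apart, it moved the share higher in b2 from 55.1% to 48.8%. The edgeR count of 38 was 40 with median-of-ratios factors, 33 with no filter and 38 without highest cells (26 genes shared). It was 8 with all 10 sets, namely C030017G13Rik, Ccdc62, Cobl, Dppa3, Dppa5a, Fbxo15, Mixl1 and Zfp42. DESeq2 called 252 genes (159 higher, 93 lower), including 30 of the 38 but not Car4, Ccdc62, Dcpp1, Gm44044, Hba-a1, Sfrp2, Slx1b or Tfcp2l1. At an unadjusted p under 0.05 edgeR gave 474 genes. The pluripotency count of 16 was 14 by mean TPM and 16 otherwise. The fibroblast count (main 7) was 11 without highest cells, 10 without cells with few genes, 6 with median-of-ratios factors and 5 by total counts or mean TPM. The contractile count of lower members (main 2) was 4 without highest cells and 3 by total counts or mean TPM. The count of 7F factors at least 2-fold lower (main 1) was 3 by total counts, 3 by mean TPM and 2 without cells with few genes. Without highest cells the log2 ratio changed sign for Cdkn2a (0.90), Foxa2 (-1.67), Ifit1 (0.00515), Map2 (-0.48) and Selenbp1 (-6.03), and without cells with few genes for Ankrd37 (-0.80) and Msx2 (-0.14). The cause was not tested. No paired analysis was possible because the cell numbers in the titles only name cells and each day 3 group is 1 set. Leaving out a day 0 set leaves no residual degrees of freedom, so that fit was not run. The lists' counts under alternatives were chosen after seeing the data. With 124.6 M (mega) counts in b2, a gene at 1 CPM is well above the floor of 3 counts, while a gene present in 1 cell sets the level of its set.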

Other observations

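Both day 3 sets held cells with transcripts of both sexes. Xist was detected in 25 of 61 b1 cells and 21 of 58 b2 cells (85.9 and 65.3 CPM), and Ddx3y in 41 and 36 cells (79.3 and 149.7 CPM). At day 0 Xist was at 183 CPM in b1 and 29.4 CPM in b2.

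The imprinted genes H19 (1429 and 1236 CPM) and Igf2 (805 and 825 CPM) were alike in b1 and b2, while Dlk1 (1.95 and 0.352 CPM, in 12 and 2 cells), Mirg (2.60 and 0.329 CPM, in 9 and 1 cells) and Meg3 (40.1 and 22.4 CPM, in 41 and 15 cells) were lower in b2. Across the 10825 genes that passed the filter on both days, Spearman's rho between the day 3 and day 0 ratios was 0.11, a description across genes of 4 sets of cells, in which genes are not independent.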
